A study of Homo sapiens with 12 samples.

Results

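Gluconeogenesis makes glucose from pyruvate, lactate and amino acids, and 5 genes coding for its enzymes were followed here in 3 human cancer cell lines: PCK1, PCK2, PC, FBP1 and G6PC3. They were 5 of the 25369 genes in the deposited tables and were taken by gene symbol. They were selected on measured values, since the counts of PCK1 had been seen to be 0 in normoxic H460 cells and not in hypoxia. The H460 hypoxia values of these genes are therefore given as a description, and PCK1 was tested nowhere. RKO cells are a colon carcinoma line, A549 cells a lung adenocarcinoma line and H460 cells a lung large cell carcinoma line. Each line was kept in normoxia or at 1% O2 (hypoxia) for 24 h, all with serum and an antibiotic and antimycotic supplement and without any genetic change. Poly(A)+ RNA was sequenced with strand-specific libraries from 2 replicates in each of the 6 groups, 12 libraries in all. RKO and A549 cells grew in DMEM and H460 cells in RPMI, so the line and the medium cannot be told apart wherever H460 is compared with the others. The study describes the replicates as biologically independent.

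In the liver and kidney, the pathway bypasses the irreversible steps of glycolysis. Pyruvate carboxylase (PC) makes oxaloacetate from pyruvate in mitochondria, and phosphoenolpyruvate carboxykinase turns oxaloacetate into phosphoenolpyruvate in the cytosol (PCK1) or in mitochondria (PCK2). Fructose-1,6-bisphosphatase (FBP1) and a glucose-6-phosphatase (G6PC in liver, G6PC3 in most tissues) then remove phosphate from the sugar, and in tumor cells the first reactions are known to feed biosynthesis from sources other than glucose.

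Counted reads ranged from 27350424 to 41757584 per library. CPM here is the usual depth-scaled count, with trimmed mean of M values (TMM) scaling over the 12 libraries. The word called marks a gene past 1.5-fold with an adjusted p below 0.1. Known hypoxia-induced genes were called higher for 4 of 4 tested in RKO and for 5 of 5 in H460, and A549 had 4 of 5. The 20 listed markers covered epithelial, colon, lung, liver and kidney, and blood and vessel genes. Of these, 15 stayed under 1 CPM in every RKO library, 12 in A549 and 16 in H460. The epithelial keratin KRT18 was at 88.6 to 182 CPM in RKO, 957 to 1247 in A549 and 449 to 508 in H460. KRT8 was at 8.08 to 12.9, 1384 to 1773 and 540 to 778 CPM in the same order. CDH1, another epithelial gene, was at 65.6 to 105 CPM in A549 and under 1 CPM in the other lines. CDX2, a colon transcription factor, was at 9.29 to 15.5 CPM in RKO, whereas the colon genes VIL1 and KRT20 were at or near 0. The lung factor NKX2-1 and the surfactant genes SFTPB and SFTPC were below 1 CPM in A549, where KRT7, a keratin of lung adenocarcinoma, was abundant (2551 to 3673 CPM). The lung protease gene NAPSA was at 3.26 to 4.89 CPM in A549. The liver and kidney markers ALB and SLC34A1 stayed below 0.1 CPM in every library, and the liver gene APOA1 was at 0.270 to 0.669 CPM in A549. The A549 normoxia replicates stood apart from each other in a set of genes that included PCK2, which is described with that gene.

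The promoters of PC, PCK2 and G6PC3 are shown because their transcripts were the abundant members and went in different directions. Each is the 250 bases before the gene's first listed start in RefSeq (GRCh38.p14), written 5′ to 3′ on the gene's strand. Each ACGTG, on either strand, is in capitals. ACGTG is a form of the core of the element to which hypoxia-inducible factors are known to bind. Other forms of that core were not searched. The table held windows for 4 of the 5 genes, not for PCK1.
PC, chr11:66958384-66958633, minus strand: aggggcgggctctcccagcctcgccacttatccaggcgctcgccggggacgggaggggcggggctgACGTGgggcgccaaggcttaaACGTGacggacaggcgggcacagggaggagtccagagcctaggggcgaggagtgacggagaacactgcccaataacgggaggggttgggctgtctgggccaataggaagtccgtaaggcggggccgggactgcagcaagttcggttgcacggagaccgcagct
PCK2, chr14:24094061-24094310, plus strand: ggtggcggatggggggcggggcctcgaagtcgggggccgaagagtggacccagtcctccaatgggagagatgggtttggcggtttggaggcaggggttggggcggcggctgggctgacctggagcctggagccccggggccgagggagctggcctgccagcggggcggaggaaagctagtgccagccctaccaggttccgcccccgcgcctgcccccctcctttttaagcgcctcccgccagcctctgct
G6PC3, chr17:44070423-44070672, plus strand: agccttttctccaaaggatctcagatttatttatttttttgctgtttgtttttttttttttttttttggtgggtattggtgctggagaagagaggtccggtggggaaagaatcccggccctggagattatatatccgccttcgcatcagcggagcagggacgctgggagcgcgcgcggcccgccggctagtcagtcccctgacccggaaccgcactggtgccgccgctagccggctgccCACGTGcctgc

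The PC window held ACGTG 2 times on the gene's own strand, 184 and 163 bases before the start. In G6PC3 a CACGTG, which reads ACGTG on both strands, began 11 bases before the start. The windows of the other 2 listed starts of G6PC3 overlap the first, and each held 4 matches to ACGTG counted on both strands, the CACGTG of the first window and another. No ACGTG was found in the window of PCK2 or FBP1, nor in the windows of the other 2 listed starts of PC. Among 35116 promoter windows of the same length 18.5% held ACGTG at least 1 time on either strand. TGACGTCA, the full cyclic AMP response element, and TGATGNAA, the element known to bind ATF4 dimers, were found in none of the windows of the 4 genes, against 1.65% and 3.14% of all windows. These matches describe letters in a window, not binding.

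PCK1 (chr20:56136136-56141513 on hg19, plus strand, 2685 exonic bases), the cytosolic carboxykinase and the enzyme best known for setting gluconeogenic flux in liver, was nearly silent except in hypoxic H460 cells. Its counts were 0 in all 4 RKO libraries. In A549 they were 2 and 0 in normoxia and 3 and 3 in hypoxia. In H460 they were 0 and 0 in normoxia and 203 and 241 in hypoxia. Only the H460 hypoxia libraries stood above a handful of reads.

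The H460 hypoxia libraries had 8.57 and 8.38 CPM of PCK1, a mean of 8.47 ± 0.13 (SD, n = 2). The exact Poisson 95% interval of the summed reads was 7.69 to 9.29 CPM, which covers counting error only. By counting error alone, a count of 0 over both normoxia libraries allows up to 3 reads, or 0.0481 CPM. The H460 hypoxia mean was 176-fold above that limit, and the spread between replicates is not part of it. In RKO, where both conditions lacked reads, the same limit was 0.0387 CPM in normoxia and 0.0384 CPM in hypoxia, so a level like that of hypoxic H460 would have been seen. The 6 reads in hypoxic A549 correspond to 0.08 ± 0.01 CPM, and this low count does not resolve a difference from the 2 reads in normoxia.

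**Figure D1:**
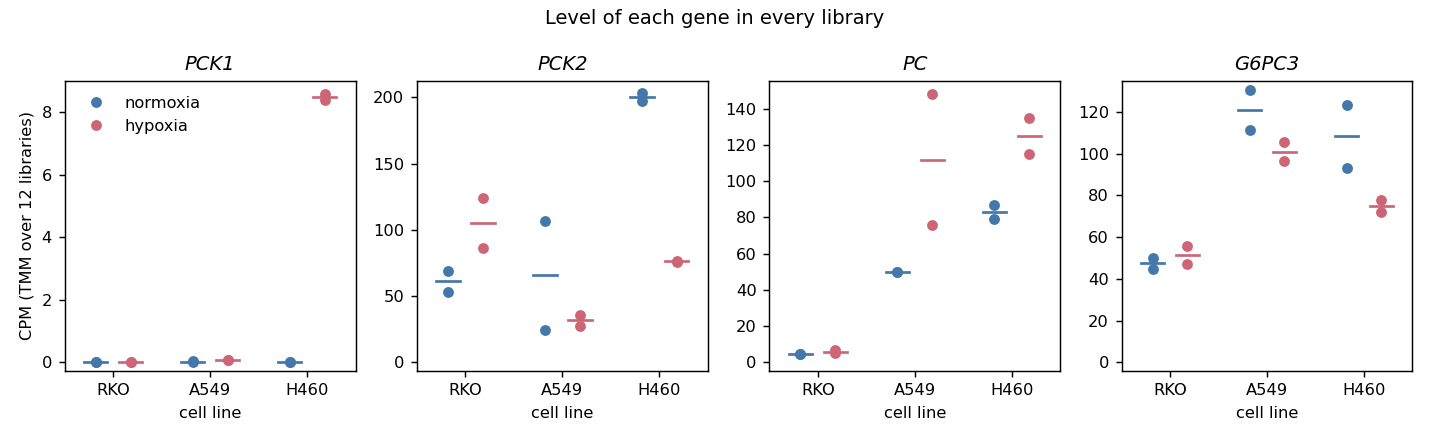
CPM (vertical axis, linear, a separate scale in each panel) of PCK1, PCK2, PC and G6PC3 in the 12 libraries by cell line. Points are libraries, short lines are means of 2 replicates, blue is normoxia and red is hypoxia. PCK1 stood above the baseline only in hypoxic H460 (8.57 and 8.38 CPM), and the A549 normoxia points of PCK2 lie far apart (24.6 and 107 CPM).

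PCK2 (chr14:24563339-24573341, plus strand, 2986 exonic bases), the mitochondrial carboxykinase, was expressed in every library, and its hypoxia values lay on opposite sides of normoxia in RKO and H460. In RKO its CPM was 69.2 and 53.4 in normoxia and 124 and 86.1 in hypoxia. Both hypoxia libraries lay above both normoxia libraries, as the libraries of the 2 conditions were apart for 70.5% of all genes tested in RKO. PCK2 rose there by 0.71 ± 0.20 on the log2 scale (SE, edgeR adjusted p = 0.0159), or 1.64-fold. It was the only member called in RKO, 1 of 3 tested, where 33.9% of all tested genes were called (18.8% higher and 15.1% lower). The call was lost in a joint fit of the 12 libraries (0.78 ± 0.42, edgeR adjusted p = 0.178). It was also lost without RKO hypoxia replicate 1 (log2 fold change 0.48) and without RKO normoxia replicate 2 (0.54), where the fold came under 1.5. Where leaving out a library left 1 in a group, here and in what follows, that library was assumed to vary like the others of the fit.

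In H460 PCK2 was at 203 and 197 CPM in normoxia and at 76.7 and 76.0 CPM in hypoxia. The replicates were nearly equal and the conditions far apart, and 86.4% of the genes tested in H460 had no overlap. The difference was -1.41 ± 0.08 on the log2 scale, 2.65-fold lower in hypoxia. PCK1 and PCK2 were the members beyond 1.5-fold in H460, as were 52.5% of all genes tested in that line. PC and G6PC3 lay just inside that limit, at 1.49-fold and 1.46-fold. Scaling by library size alone lowered the H460 fold changes (median log2 shift -0.35), and PCK2 was then at -1.76.

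In A549 PCK2 was at 24.6 and 107 CPM in normoxia and at 27.5 and 35.7 CPM in hypoxia. The hypoxia libraries lay between the normoxia libraries, so the conditions overlapped. The fitted difference of -1.07 ± 0.51 was not called (edgeR adjusted p = 0.339). Without A549 normoxia replicate 2 it became 0.34 ± 0.27 (edgeR adjusted p = 0.593), and without replicate 1 it became -1.77 ± 0.23 (edgeR adjusted p = 0.000949). It was also called without hypoxia replicate 1 (-0.91, edgeR adjusted p = 0.0326) or hypoxia replicate 2 (-1.26, edgeR adjusted p = 0.00193). The direction in A549 thus rested on which normoxia library was used.

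The hypoxia effect on PCK2 was 1.83 ± 0.60 higher in RKO than in A549 on the log2 scale (edgeR test of the difference, adjusted p = 0.0762). This was 1 of 3 members tested, and 14.6% of all genes passed that test. The difference was 0.42 (edgeR adjusted p = 0.432) without A549 normoxia replicate 2. It also missed the threshold without RKO normoxia replicate 1 (adjusted p = 0.150), RKO normoxia replicate 2 (0.190), RKO hypoxia replicate 1 (0.207) or A549 hypoxia replicate 1 (0.182), all edgeR values.

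The gap between the A549 normoxia replicates was examined in other genes of the regulator ATF4, a transcription factor of the amino acid and stress response that is known to act on PCK2. Replicate 2 had 4.34 times the PCK2 CPM of replicate 1, a ratio reached by 27 of 14251 genes tested in A549 (0.189%), while PC (0.996) and G6PC3 (0.855) differed little. Of the 12 listed ATF4 and serine genes, 7 were more than 2-fold higher in replicate 2 (58.3%, against 2.11% of all tested genes), and their median ratio was 2.32 against 1.00 for all genes. The asparagine synthetase gene ASNS was at 44.5 and 215 CPM, a ratio of 4.84. DDIT3, a stress transcription factor, was at 10.0 and 56.6 CPM, and PHGDH, the first enzyme of serine synthesis, at 30.9 and 95.2 CPM. ATF4 itself was at 259 and 343 CPM, a ratio of 1.32.

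The same genes separated the RKO replicates. In normoxic RKO, replicate 1 had 1.30 times the PCK2 of replicate 2, and all 12 listed ATF4 and serine genes were higher in it, with a median ratio of 1.57. In hypoxic RKO, replicate 1 had 1.44 times the PCK2, and again all 12 were higher (median ratio 1.65). In normoxic A549 all 12 were higher in the replicate with more PCK2, whereas 50.3% of all tested genes were, and in the 2 RKO groups 53.9% and 52.6% were. In hypoxic A549 5 of 12 were higher, and in the H460 groups, whose PCK2 ratios were 1.03 and 1.01, 6 and 7 of 12. This list was examined because earlier results had shown these genes to vary, and its part in the PCK2 values was not tested.

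**Figure D2:**
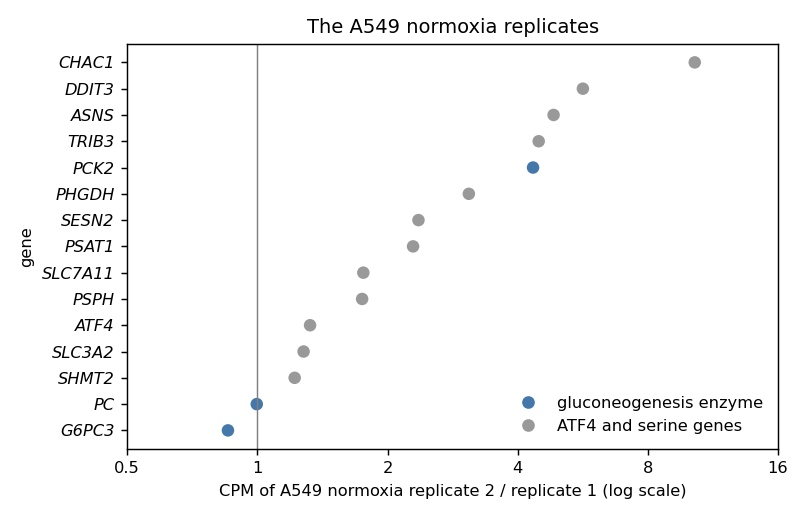
Ratio of the CPM in A549 normoxia replicate 2 to that in replicate 1 (horizontal axis, log scale) for the 3 gluconeogenesis genes expressed in A549 (blue) and the 12 ATF4 and serine genes (gray), 1 gene per line. PCK2 (4.34) lies among ASNS (4.84), TRIB3 (4.47) and PHGDH (3.08), while PC and G6PC3 lie close to 1.

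Between the lines in normoxia, PCK2 was highest in H460. It was lower in RKO by a log2 difference of -1.71 ± 0.43 (edgeR adjusted p = 0.00280) and in A549 by -1.61 ± 0.43 (edgeR adjusted p = 0.00520). The A549 value was -3.02 without A549 normoxia replicate 2 and -0.91 without replicate 1, both still called. RKO and A549 did not differ detectably (-0.10 ± 0.42, edgeR adjusted p = 0.851, approximate 95% interval -0.93 to 0.73). The value for RKO against A549 became 1.31 without A549 normoxia replicate 2 and -0.80 without replicate 1, and both were then called.

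PC (chr11:66615996-66725847, minus strand, 4241 exonic bases), the carboxylase that makes oxaloacetate, differed most between lines in normoxia among the 3 tested members. In normoxia it was at 4.44 and 4.87 CPM in RKO, at 50.0 and 49.8 CPM in A549 and at 86.8 and 78.9 CPM in H460. The lines did not overlap. PC was 10.7-fold lower in RKO than in A549 (log2 difference -3.42 ± 0.27, edgeR adjusted p = 4.77e-08) and 17.8-fold lower in RKO than in H460 (-4.15 ± 0.28, edgeR adjusted p = 7.12e-09). A549 was 1.66-fold lower than H460 (-0.73 ± 0.24, edgeR adjusted p = 0.0169). RKO against A549 had 2 of 3 tested members called (PC and G6PC3), with 60.2% of all genes called. RKO against H460 had 3 of 3, with 61.9% of all genes, and the lung lines had 2 of 3 (PC and PCK2), with 52.1%. Calls between lines were thus common among all genes.

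In hypoxia PC was at 75.8 and 148 CPM in A549, both above the normoxia libraries, and 49.9% of the genes tested in A549 had no overlap between conditions. The rise of 1.15 ± 0.28 on the log2 scale, or 2.21-fold, was called (edgeR adjusted p = 0.0931). It was the only member called in A549, 1 of 3 tested, where 2.67% of all tested genes were called (2.22% higher and 0.456% lower). The hypoxia replicates differed 1.95-fold, and without hypoxia replicate 2 the value was 0.60 ± 0.26 (edgeR adjusted p = 0.550). The call was also lost without normoxia replicate 1 (1.15, edgeR adjusted p = 0.101) or normoxia replicate 2 (1.14, edgeR adjusted p = 0.110).

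In H460 PC was at 135 and 115 CPM in hypoxia, again above both normoxia libraries, a difference of 0.58 ± 0.10 on the log2 scale. With scaling by library size alone the difference was 0.22. In RKO PC was at 6.85 and 4.90 CPM in hypoxia. The libraries of the 2 conditions nearly touched there, and the difference of 0.27 ± 0.27 was not called (edgeR adjusted p = 0.454, approximate 95% interval -0.26 to 0.81). The hypoxia effect on PC was not shown to differ between RKO and A549 (-0.83 ± 0.36, edgeR adjusted p = 0.169), although it passed the threshold without A549 hypoxia replicate 1 (-1.23, edgeR adjusted p = 0.0143). LRFN4, which lies within the PC locus on the plus strand, went the other way in H460, from 62.9 and 51.7 CPM in normoxia to 26.8 and 27.7 CPM in hypoxia, and the authors counted reads by strand.

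G6PC3 (chr17:42148097-42153712, plus strand, 1831 exonic bases), the widely expressed glucose-6-phosphatase, varied least of the abundant members. In RKO it was at 44.6 and 50.2 CPM in normoxia and at 47.0 and 55.7 CPM in hypoxia. The conditions overlapped, and the difference of 0.06 ± 0.17 was not called (edgeR adjusted p = 0.819, approximate 95% interval -0.27 to 0.38). In A549 it was at 130 and 111 CPM in normoxia and at 105 and 96.2 CPM in hypoxia. The normoxia libraries were the higher ones, and the difference of -0.28 ± 0.17 was not called (edgeR adjusted p = 0.464). In H460 it was at 123 and 93.2 CPM in normoxia and at 77.8 and 71.8 CPM in hypoxia, a difference of -0.55 ± 0.12, or -0.90 with scaling by library size alone. In normoxia G6PC3 was 2.55-fold lower in RKO than in A549 (-1.35 ± 0.16, edgeR adjusted p = 3.60e-06) and 2.28-fold lower than in H460 (-1.19 ± 0.16, edgeR adjusted p = 1.24e-05), whereas A549 and H460 overlapped (0.16 ± 0.16, edgeR adjusted p = 0.396). The hypoxia effect was not shown to differ between RKO and A549 (0.38 ± 0.22, edgeR adjusted p = 0.317).

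**Figure D3:**
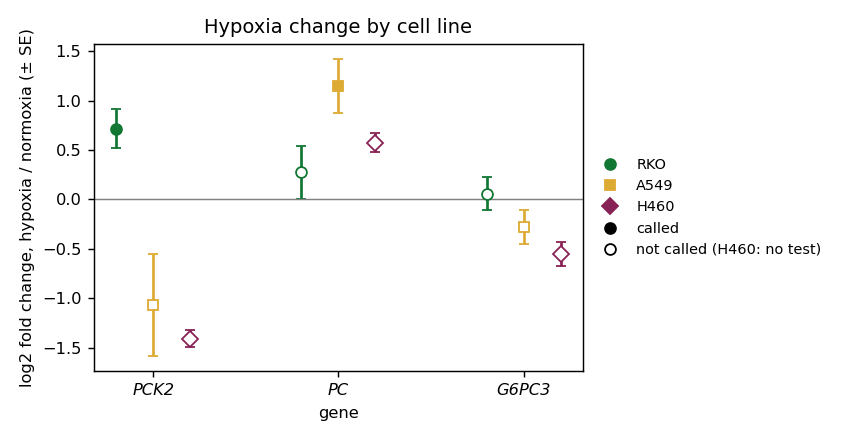
Log2 fold change of hypoxia over normoxia (vertical axis) with its standard error for PCK2, PC and G6PC3 in RKO (circles), A549 (squares) and H460 (diamonds), 2 replicates per condition. Filled symbols were called, and the H460 values have no test. PCK2 was higher in hypoxic RKO (0.71) and lower in hypoxic H460 (-1.41), and PC was above 0 in the 3 lines.

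FBP1 (chr9:97365420-97402531, minus strand, 1796 exonic bases), which removes a phosphate from fructose 1,6-bisphosphate, was barely detected. The 4 RKO libraries and the 2 A549 normoxia libraries had no read, and hypoxic A549 had 1 and 0. In H460 the counts were 3 and 4 in normoxia and 3 and 5 in hypoxia, at most 0.174 CPM. With 16 reads over the 12 libraries no change could be detected at this depth, and FBP1 passed the filter on low counts in none of the lines. PCK1 passed it in H460 alone, through the hypoxia libraries.

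Levels were compared between genes by the deposited RPKM, which divides by gene length. In RKO normoxia G6PC3 was at 27.6 ± 2.91 RPKM (SD, n = 2), PCK2 at 21.8 ± 3.48 and PC at 1.17 ± 0.10. In A549 normoxia G6PC3 was at 69.7 ± 6.93 RPKM, and PCK2 (23.3 ± 20.8) and PC (12.4 ± 0.11) overlapped. In H460 normoxia PCK2 led at 69.8 ± 0.53 RPKM, above G6PC3 at 61.4 ± 11.1 and PC at 20.3 ± 1.09.

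In hypoxia the order of the RPKM levels changed in H460. H460 had G6PC3 at 32.9 ± 0.65 RPKM, PC at 23.7 ± 1.76 and PCK2 at 20.6 ± 0.65, none of them overlapping. The ratio of PCK2 to PC RPKM was 3.33 and 3.55 in normoxic H460 and 0.808 and 0.939 in hypoxic H460. PCK1 reached 2.55 ± 0.06 RPKM there, so that it made up 11.1% and 10.9% of the carboxykinase RPKM (PCK1 plus PCK2) in the 2 hypoxia libraries. In hypoxic A549 PC (25.7 ± 11.1 RPKM) stood above PCK2 (10.4 ± 1.64), and in hypoxic RKO PCK2 (37.7 ± 7.57) and G6PC3 (30.4 ± 5.32) overlapped.

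**Figure D4:**
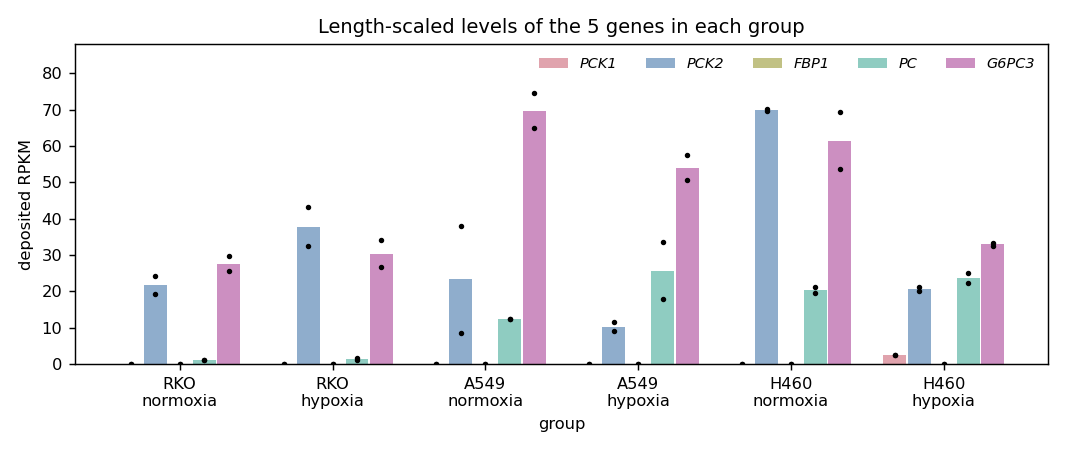
Deposited RPKM (vertical axis, from 0) of the 5 genes in the 6 groups. Bars are means of 2 replicates and black points the libraries. PCK2 led in normoxic H460 (69.8 RPKM) and stood below G6PC3 (32.9) and PC (23.7) in hypoxic H460, the only group with a visible PCK1 bar (2.55). FBP1 is not visible.

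The other genes of the last gluconeogenic steps were mostly silent or carriers. G6PC, the liver glucose-6-phosphatase, and FBP2, the muscle fructose-bisphosphatase, were below 0.1 CPM in every library. Of 6 listed genes 3 were tested in each line. In RKO SLC37A2, a phosphate-linked glucose-6-phosphate antiporter, rose from 0.930 and 0.903 CPM to 5.94 and 5.09 CPM (2.52 ± 0.31, edgeR adjusted p = 0.000292), and edgeR called 0 in A549, where 0 of 3 had an unadjusted p under 0.05 and DESeq2 called 0. In H460 1 was called higher and 2 lower, and 51.9% of all tested genes were called (24.6% higher and 27.3% lower). SLC37A2 rose there from 0.674 and 0.616 CPM to 1.10 and 1.70 CPM (1.12 ± 0.34, edgeR adjusted p = 0.0113). SLC37A4, the carrier that brings glucose-6-phosphate to the phosphatase in the endoplasmic reticulum, fell in H460 from 45.2 and 41.1 CPM to 28.0 and 26.0 CPM (-0.69 ± 0.10, edgeR adjusted p = 5.50e-05). SLC37A1 fell there as well (-0.72 ± 0.14).

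Genes that supply pyruvate and oxaloacetate were listed next. Of 18 tested in RKO, 1 was called higher and 5 lower (18.8% and 15.1% of all tested genes were), with a median log2 fold change of -0.33 against 0.01 for all tested genes. H460 had 2 higher and 8 lower of 18 (24.6% and 27.3% of all tested genes), with a median of -0.31 against -0.04. A549 had 1 higher and 0 lower by edgeR, where 2.22% and 0.456% of all tested genes were (median -0.12 against -0.01). There 3 lower genes had an unadjusted p under 0.05 and DESeq2 called 1 lower. LDHA, which interconverts pyruvate and lactate, was called higher in each line, with 1.38 ± 0.19 in A549 and 1.18 ± 0.10 in H460 on the log2 scale and 0.63 ± 0.19 in RKO. SLC25A10, the mitochondrial dicarboxylate carrier, fell in RKO (-0.98 ± 0.15) and in H460 (-1.65 ± 0.13). The aspartate and glutamate carrier SLC25A13 fell in the same lines (-1.43 ± 0.19 and -1.30 ± 0.12), and so did SLC25A12, its paralog (-1.06 ± 0.18 and -0.99 ± 0.10). The A549 count was 2 without either normoxia replicate and 3 without hypoxia replicate 1.

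Enzymes of the glycolytic steps that oppose gluconeogenesis were listed together with those that make or break down fructose 2,6-bisphosphate. This list had higher calls in each line. RKO had 5 of 10 tested genes called higher (18.8% of all tested genes were), A549 had 3 of 11 (2.22% of all) and H460 had 5 of 10 (24.6% of all). The median log2 fold changes were 0.56, 0.56 and 0.54, against 0.01, -0.01 and -0.04 over all tested genes. The lower calls by edgeR were 0, 0 and 1, and 1 gene in each line had an unadjusted p under 0.05 in that direction, while DESeq2 gave 0, 0 and 1. The lower call in H460 was C12orf5 (TIGAR), a fructose-2,6-bisphosphatase (-1.45 ± 0.13). HK2, a hexokinase, rose in each line, by log2 fold changes of 2.45 ± 0.24, 2.52 ± 0.29 and 2.76 ± 0.10 in the order RKO, A549, H460. PFKL, the liver type phosphofructokinase, did so as well, by 0.82 ± 0.15, 1.12 ± 0.18 and 1.68 ± 0.09. PFKP rose in H460 (1.17 ± 0.09, edgeR adjusted p = 3.82e-07) and in A549 (0.74 ± 0.18, edgeR adjusted p = 0.0993). In RKO it was not called (-0.09 ± 0.16). The A549 call of PFKP was lost with RLE factors, library size alone, a filter of 10 counts and both limma fits. It was also lost without normoxia replicate 1, normoxia replicate 2 or hypoxia replicate 2. PFKFB4, which sets the level of fructose 2,6-bisphosphate, rose from 37.3 and 25.0 to 296 and 235 CPM in RKO and from 19.1 and 12.5 to 479 and 446 CPM in H460. PFKFB3, of the same family, rose in RKO (1.19 ± 0.15). Without A549 hypoxia replicate 1 the A549 count was 5.

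Transcription factors and coactivators known for PCK1 and G6PC were listed as 16 genes. RKO had 4 of 10 tested called higher and 1 lower (18.8% and 15.1% of all tested genes were), with a median log2 fold change of 0.07. H460 had 4 of 14 higher and 1 lower (24.6% and 27.3% of all), with a median of 0.27. A549 had 0 of 15 called higher by edgeR and 2 lower (2.22% and 0.456% of all, median -0.09), and there 1 higher gene had an unadjusted p under 0.05 and DESeq2 called 1 higher. With scaling by library size alone the H460 counts became 2 and 3, with a median of -0.08. PPARGC1A, the coactivator known to drive PCK1 in fasted liver, rose in H460 from 20.4 and 19.4 CPM to 58.6 and 51.3 CPM (1.45 ± 0.10, edgeR adjusted p = 1.69e-07). In A549 it fell from 4.22 and 5.67 CPM to 2.18 and 1.69 CPM (-1.36 ± 0.33, edgeR adjusted p = 0.0953), and in RKO it was at most 0.125 CPM. NR4A1, an orphan nuclear receptor, rose in RKO (1.46 ± 0.22, edgeR adjusted p = 0.000696) and fell in A549 (-1.08 ± 0.25, edgeR adjusted p = 0.0812). The difference between the NR4A1 effects in RKO and A549 passed its own test (2.58 ± 0.29, edgeR adjusted p = 0.000364). Both A549 calls were lost with scaling by library size alone, in both limma fits and without A549 hypoxia replicate 2. The A549 count was 1 without either normoxia replicate and 4 without hypoxia replicate 1, and the RKO count was 2 without normoxia replicate 2 or hypoxia replicate 1.

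PPARA, a fatty acid sensor, rose in H460 (1.90 ± 0.13) and in RKO (0.64 ± 0.18). CRTC2, a CREB coactivator, rose in H460 (0.77 ± 0.09). CREB1 and CEBPB rose in RKO (0.82 ± 0.16 and 0.65 ± 0.29), CEBPB close to the threshold (edgeR adjusted p = 0.0979). The 1 lower call in RKO and in H460 was CEBPA, a liver and lung factor, which fell in RKO (-0.61 ± 0.22, edgeR adjusted p = 0.0494) and in H460 from 5.00 and 4.78 CPM to 0.886 and 1.08 CPM (-2.32 ± 0.24, edgeR adjusted p = 3.73e-06). HNF4A, a liver and gut factor, was at 25.7 to 48.0 CPM in A549 and at most 0.127 CPM in RKO and H460. The part of HNF4A in the PCK1 values was not tested. FOXO1, an insulin-regulated factor, was not called in RKO (-0.02 ± 0.21) or A549 (0.28 ± 0.29). It was not called in H460 either, where -0.57 ± 0.14 (edgeR adjusted p = 0.00286) was below the fold threshold. Among the 20 markers, only the lung factor NKX2-1 was called in H460. It was at 0.0709 and 0 CPM in normoxia and 3.67 and 3.41 CPM in hypoxia. Of the other listed lung genes, KRT7 (14.4 to 16.8 CPM) and NAPSA (0.426 to 0.730 CPM) were not called there. SFTPB and SFTPC were at most 0.0293 CPM in H460. The summed level of the marker list was 1237 to 1302 CPM in normoxic and 1010 to 1040 CPM in hypoxic H460, and its part in the PCK1 values was not tested.

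Subunits of the GID ubiquitin ligase, whose yeast form degrades gluconeogenic enzymes, were called higher for 2 of 11 genes in RKO (18.8% of all tested genes were), and H460 had 5 higher and 2 lower of 11 (24.6% and 27.3% of all). In A549 edgeR and DESeq2 each called 0, and 1 gene had an unadjusted p under 0.05. The median log2 fold changes were 0.20, 0.55 and 0.01 in the order RKO, H460, A549. YPEL5 rose in RKO (1.52 ± 0.22) and H460 (2.14 ± 0.09), and WDR26 did too (0.90 ± 0.15 and 1.17 ± 0.09). MKLN1 rose in H460 (1.04 ± 0.09). In A549 YPEL5 was not called (0.78 ± 0.28, edgeR adjusted p = 0.222), and the count was 1 without normoxia replicate 2 or hypoxia replicate 1.

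Of the 12 ATF4 and serine genes, RKO had 3 called higher (median log2 fold change 0.11, with 18.8% of all tested genes called higher). A549 had 3 called lower (median -1.19, 0.456% of all), and H460 had 2 higher and 5 lower (median -0.44, 24.6% and 27.3% of all). DESeq2 called 0 of the 12 in RKO and 6 lower in A549. In H460 SLC7A11, the cystine transporter gene, fell by 2.03 on the log2 scale, the serine synthesis genes PSAT1 and PSPH fell by 1.69 and 1.58, and DDIT3 rose (1.46 ± 0.11). In RKO DDIT3 rose as well (1.30 ± 0.37). In A549 CHAC1 (-3.77 ± 0.88), PSAT1 (-1.70 ± 0.37) and SLC7A11 (-1.48 ± 0.34) fell. The A549 count was 0 with library size alone and in both limma fits. It was 10 without normoxia replicate 1, 1 without normoxia replicate 2, 9 without hypoxia replicate 1 and 8 without hypoxia replicate 2. The RKO count was 7 without normoxia replicate 1, 1 without hypoxia replicate 1 and 5 without hypoxia replicate 2. ATF4 was not called in RKO (-0.27 ± 0.21), in A549 (-0.63 ± 0.19) or in H460, where 0.53 ± 0.10 was below the fold threshold.

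Genes with the most similar profile were sought over the 12 libraries by Pearson's r of log2(CPM + 0.5) among 14456 genes with a mean of at least 20 counts. The libraries share lines and conditions, so these values are descriptions. For PCK1 they were SEC14L5 (r = 0.998), NOD2 (0.992) and DDX41 (0.988), and 38 genes exceeded 0.95. PCK1 had at most 3 reads in 10 libraries, so its r rests on the 2 H460 hypoxia libraries, whose values were part of its selection. Any gene high in those libraries alone would score close to it. NOD2 was at 0.0355 and 0.0879 CPM in normoxic H460 and at 10.4 and 7.68 CPM in hypoxic H460, while DDX41 was at 59.5 to 80.5 CPM in the 10 other libraries and at 393 and 326 CPM in hypoxic H460. For PCK2 they were AKNA (0.942), the neutral amino acid transporter gene SLC1A4 (0.937) and GTPBP2 (0.908), and none exceeded 0.95. For PC they were CARD14 (0.994), MTCL1 (0.992) and KIAA1462 (0.991), but 437 genes exceeded 0.95. For G6PC3 they were MPV17L (0.976), IFI35 (0.972) and EMC3 (0.971), and 47 genes exceeded 0.95.

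Within 500000 bases of PCK1 on hg19, the gene PMEPA1 was at 37.6 and 30.7 CPM in normoxic and at 170 and 168 CPM in hypoxic H460. The nearest genes, CTCFL and ZBP1, had at most 1 read in each H460 library. RAE1 was at 51.8 and 51.1 CPM in normoxia and at 38.4 and 38.7 CPM in hypoxia, and RBM38 stayed between 15.7 and 18.1 CPM.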

How the data were processed

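Single-end reads of strand-specific poly(A)+ libraries were aligned by the authors to hg19 with TopHat2 2.0.13 and counted per gene by strand with HTSeq 0.6.1. The authors deposited whole-number counts for 25369 genes in each of 12 libraries. They also deposited RPKM values, which equalled the count divided by gene length and by the summed counts, with hg19 positions and gene lengths. The listed lengths and positions were used as given.

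Counts were fitted with the quasi-likelihood F test of edgeR 4.0.16 in R 4.3.3 after TMM scaling, each line on its 4 libraries and genes over 0.5 CPM in at least 2 of them. Normoxic lines, and RKO against A549 effects, were compared in a joint fit of 12 libraries. Calls needed a Benjamini-Hochberg adjusted p under 0.1 over all tested genes and a fold change over 1.5 (for the difference of effects, the p alone). SE is the log2 fold change divided by the square root of F, and approximate 95% intervals assume a normal distribution. Scripts were tested on simulated data. Alternatives used DESeq2 1.42.0 and limma 3.58.1. The members, the lists and the rule for named genes were chosen with earlier results of these data known. The rule named the members, up to 3 called genes per list and line with a mean of at least 100 counts and no overlap, and a few regulators. LRFN4, C12orf5, CEBPA, APOA1, NAPSA and SLC37A2 in H460 were chosen after their values were seen. The same holds for NKX2-1 in H460, KRT8, KRT18, CDH1, the neighbours of PCK1, and genes named for the A549 normoxia replicates.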

Additional observations from a re-analysis of the deposited data

Results flagged for a closer look

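The hypoxia effect on PCK2 differed between RKO and A549 by 1.83 ± 0.60 on the log2 scale in the test of the difference (edgeR adjusted p = 0.0762), with higher values in 2 of 2 hypoxic RKO libraries and overlapping conditions in A549. The value was 0.42 without A549 normoxia replicate 2.

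PCK2 also went in opposite directions in RKO (0.71) and H460 (-1.41), where each hypoxia library lay on 1 side of both normoxia libraries. PPARGC1A did so in A549 (-1.36) and H460 (1.45), although its A549 call was lost with library size alone and in both limma fits. The RKO call of PCK2 was lost in the joint fit (0.78 ± 0.42, edgeR adjusted p = 0.178). Its fold came under 1.5 without RKO hypoxia replicate 1 (0.48) or RKO normoxia replicate 2 (0.54). Conditions did not overlap for 70.5% of all tested genes in RKO and 86.4% in H460. The difference was not tested in these 2 pairs. H460 grew in another medium than the other lines.

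The hypoxia effect on NR4A1 differed between RKO (1.46) and A549 (-1.08) by 2.58 ± 0.29 in the test of the difference (edgeR adjusted p = 0.000364), with both hypoxia libraries above normoxia in RKO and below it in A549. The value was 2.22 to 2.88 over the 14 alternatives tried, past the threshold in each.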

How the results depend on the processing

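With 2 replicates per group, a single library could decide a call. The counts of called genes (all tested, then members) in A549 hypoxia were 381 and 1 as reported, 871 and 1 with DESeq2, 192 and 0 with library size alone, 800 and 1 with no filter, 180 and 0 with limma on log2(RPKM + 0.1), 144 and 0 with limma on log2(RPKM + 1), and 1397 and 1 in the joint fit. The RKO member call became 0 in the joint fit. For the difference of effects, members called were 0 with DESeq2, 2 with no filter (PC being added) and 0 with limma on log2(RPKM + 1). The cause was not tested. Normoxic PCK2 in RKO against A549 turned from -0.10 to 0.23 with limma on log2(RPKM + 1).

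The replicate block was run because groups share replicate numbers. Same-numbered deviations correlated at 0.229 in RKO, 0.290 in A549 and 0.0797 in H460, and the records name no shared batch, so the numbers were not taken as pairs. With the replicate block, A549 had 1912 called genes and 2 called members, PCK2 being added (-0.73 ± 0.23, edgeR adjusted p = 0.0215). The difference of effects had 4198 called genes in place of 2270, and normoxic PCK2 in RKO against A549 was 0.18.

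Leaving out each replicate in turn gave 0 to 1 called members in RKO, 0 to 2 in A549 and 0 to 1 for the difference of effects. All called genes ranged from 237 to 1835 in A549 and from 1047 to 2795 for the difference of effects. The log2 fold change of G6PC3 ranged from -0.065 to 0.22 in RKO hypoxia and from -0.033 to 0.37 for normoxic A549 against H460. That of PCK2 ranged from -1.77 to 0.34 in A549 hypoxia and from -0.80 to 1.31 for normoxic RKO against A549.

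Higher calls made up 47.5% of all H460 calls with TMM and 26.5% with library size alone, and 62.0% against 79.8% for the difference of effects. The H460 members kept their signs under every scaling tried. Depth limits FBP1 in every line and PCK1 outside hypoxic H460.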
